A study of Mus musculus with 6 samples.

Results

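Somatostatin (Sst) and the cocaine- and amphetamine-regulated transcript prepropeptide gene (Cartpt) each encode a precursor from which neurons cut secreted peptides. They were followed together as 2 of the 21926 genes counted in single cells of the mouse ventromedial hypothalamus (VMH). The pair was chosen by its counts per cell, which earlier results of these data had shown to occur in the same cells, so its levels and its co-detection are given as descriptions, without a test. A cell was taken to hold a gene when its well had at least 1 count of it. Of 576 wells, 530 had 500 or more genes with a count, with mitochondrial genes taking less than 25% of the counts, and were kept as cells. They fell into 27 cells with both genes, 76 with Sst only, 32 with Cartpt only and 395 with neither.

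The cells came from 3 male and 3 female mice, all at postnatal day 10 and all of genotype Ai14f/+;Sf1-Cre. In these mice Cre is driven from the promoter of Sf1 (Nr5a1), and it switches on the Ai14 red fluorescent reporter in cells that have expressed the driver at any time, so sorting for it selects a lineage and not a present level of Nr5a1. The hypothalamus was dissected roughly, so cells of regions next to the VMH can be among them. No group without the reporter or the driver was part of the study, and each mouse filled 1 plate of 96 wells, so mouse and plate cannot be told apart. The kept cells of the males held 783270, 535469 and 774670 counts, and those of the females 441260, 185654 and 591768 counts. Female 2 was the shallowest plate, at a median of 2097 counts per cell, against 5170 to 7979.5 in the other mice. The 46 wells left out held 4640 counts together and no count of Sst or Cartpt, where the level of the kept cells would have given 3.97 and 0.333 counts. All 6 plates used the same 96 well names, which are positions and not cells, and no 2 kept wells held identical counts.

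Somatostatin peptides act on the G protein-coupled receptors Sstr1 to Sstr5, which lower cyclic AMP and dampen secretion and firing. In the hypothalamus somatostatin is best known from periventricular neurons that restrain growth hormone release, and it is also made by many GABAergic neurons elsewhere in the brain. CART peptides reduce feeding when given into the rodent brain, and Cartpt is known from Pomc neurons of the arcuate nucleus, which lies beside the VMH, as well as from other hypothalamic nuclei. Both genes are textbook targets of the cyclic AMP response factor CREB, which binds the palindrome TGACGTCA.

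Sst lies on the minus strand of chromosome 16 (GRCm38/mm10 chr16:23889573-23890958) and Cartpt on the minus strand of chromosome 13 (chr13:99898489-99901091). The 150 bases upstream of each RefSeq start site (GRCm38.p6) are shown because each holds that palindrome, in capitals and read 5′ to 3′ on the gene's own strand. The windows are chr16:23890845-23890994 and chr13:99900684-99900833, of which the Sst window lies partly and the Cartpt window wholly within the longer gene as GENCODE annotates it.
Sst: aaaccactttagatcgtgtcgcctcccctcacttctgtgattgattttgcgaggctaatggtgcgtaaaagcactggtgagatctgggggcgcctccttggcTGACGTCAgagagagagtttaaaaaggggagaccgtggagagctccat
Cartpt: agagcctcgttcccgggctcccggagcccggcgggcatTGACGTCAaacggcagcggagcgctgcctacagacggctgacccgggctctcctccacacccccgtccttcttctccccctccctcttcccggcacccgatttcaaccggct
The palindrome stood at bases -48 to -41 from the Sst start and at -112 to -105 from the Cartpt start. It was present in 588 of 32851 RefSeq promoter windows of 300 bases (1.79%), on either strand, and the shorter form TGACG in 20.8%. These are matches of letters, and binding was not measured here.

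Sst was found in 103 of the 530 cells (19.4%; exact 95% binomial interval 16.1% to 23.1%) and its counts were spread very unevenly over them. Of 2831 Sst counts, 92.8% lay in the 35 cells with 10 or more counts, while 32 cells had 1 count and 36 had 2 to 9. In males 1, 2 and 3, Sst was in 24, 18 and 19 cells with 376, 813 and 445 counts, and in females 1, 2 and 3 in 14, 15 and 13 cells with 286, 385 and 526 counts. Every mouse had between 3 and 8 cells with 10 or more counts. A single cell set much of the total of a mouse: the highest cell held 102, 316 and 191 counts in the males and 142, 168 and 405 counts in the females, and the cell with 405 counts carried 77.0% of the Sst counts of female 3.

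Cartpt was found in 59 cells (11.1%; 8.58% to 14.1%) and seldom reached high counts. There were 28 cells with 1 count, 23 with 2 to 9 and 8 with 10 or more, and the highest cell, in male 2, held 28 of the 238 Cartpt counts. In males 1, 2 and 3, Cartpt was in 12, 7 and 11 cells with 30, 61 and 51 counts, and in females 1, 2 and 3 in 7, 8 and 14 cells with 27, 18 and 51 counts. Female 3 had the most Cartpt cells and female 2 was the only mouse with no cell of 10 or more counts.

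**Figure D1:**
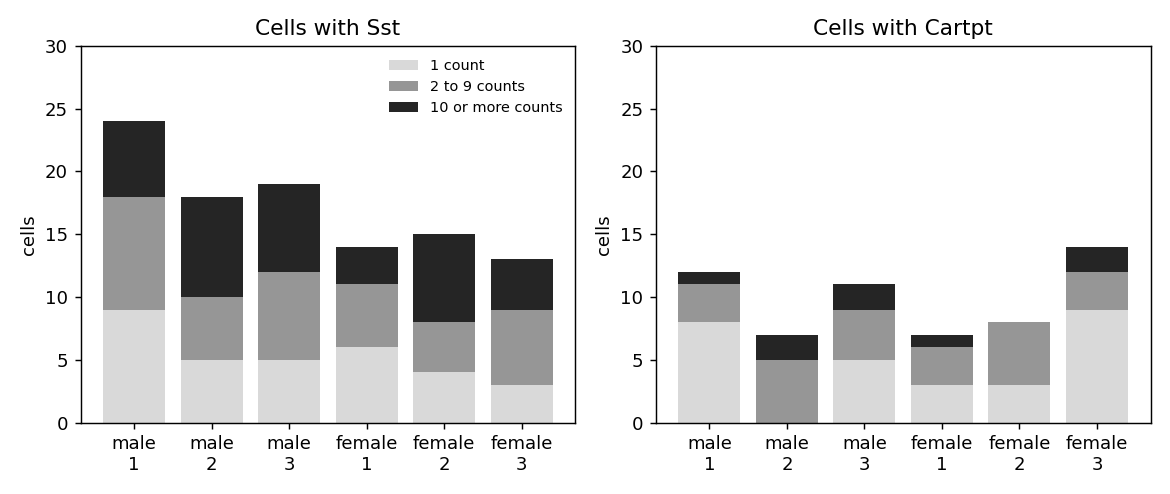
Number of kept cells with Sst (left) and with Cartpt (right) in each mouse, males left of females, stacked by the number of counts in the cell. Cells with 10 or more counts made up 35 of 103 Sst cells and 8 of 59 Cartpt cells.

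Cells with both genes were found in all 6 mice, 8, 4 and 6 of them in males 1, 2 and 3 and 3 in each female. Were the genes distributed independently among the cells of 1 plate and of like depth (the cells of a plate were split into 3 groups by total counts), 11.6 such cells would be expected in all, against the 27 observed, a ratio of 2.34. The ratio was 2.64, 2.80 and 2.70 in the males and 2.07, 2.49 and 1.35 in the females, with a mean of 2.34 ± 0.546 (SD, n = 6 mice). It was above 1 in each mouse, and leaving out 1 mouse at a time gave 2.23 to 2.57. Cells with both genes had a median of 7426 counts, against 5742 in Sst only cells, 7039 in Cartpt only cells and 5710 in cells with neither. No doublet caller was run, and whether 2 cells shared a well was not tested.

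**Figure D2:**
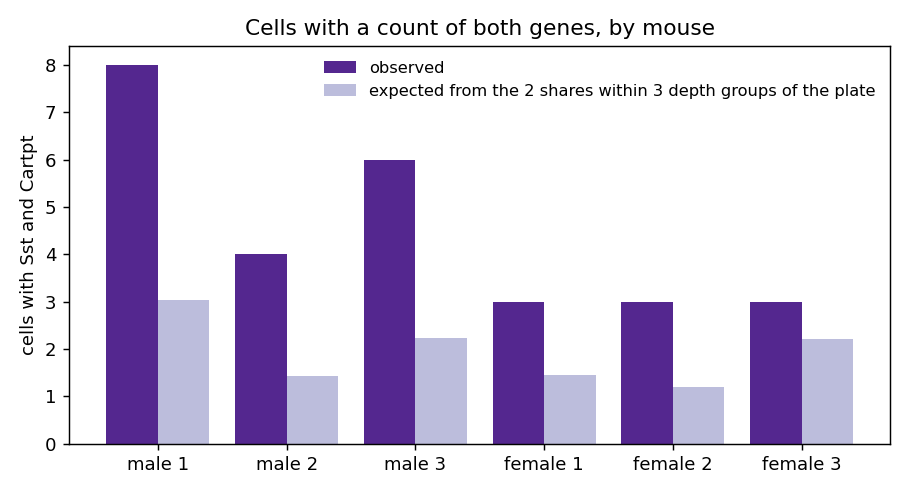
Cells with at least 1 count of Sst and of Cartpt in each mouse (dark bars) and the number expected from the shares of the 2 genes within 3 depth groups of the plate (pale bars). The dark bar is the taller in all 6 mice, by the least in female 3 (3 against 2.22).

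Seen from the Sst side, Cartpt was in 26.2% of the 103 cells with Sst and in 7.49% of the 427 without. The share in cells with Sst was 33.3%, 22.2% and 31.6% in the males and 21.4%, 20% and 23.1% in the females. In cells without Sst it was 5.80%, 4.55% and 6.85% in the males and 5.41%, 6.94% and 15.1% in the females, so that it was higher beside Sst in 6 of 6 mice. The single high value without Sst was that of female 3, the mouse whose ratio was nearest to 1.

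The size of the excess moved with the counts asked for. With at least 2 counts of each gene, 14 cells held both against 4.16 expected (ratio 3.37), though female 3 then had none. When each cell was thinned to 1986 counts, which left out 53 cells (38 of them from female 2), 8 cells held both against 4.42 expected (ratio 1.81), and female 3 and male 3 had none. In a limit added after seeing the data, 13 cells had at least 10 Sst counts and any Cartpt, against 3.54 expected (ratio 3.67). Leaving out the 17 cells with at least 10 Pomc counts, also added after seeing the data, gave 26 cells against 10.3 (ratio 2.53).

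Against the rest of the transcriptome the pair stood high in 1 direction and among several in the other. Of the 8725 genes present in at least 5% of cells, Cartpt had the highest ratio of observed to expected cells with Sst, at 2.34, where the median gene had 1.01 and the highest 5% began at 1.36. Next came Uxt (2.25), Nrbf2 (2.16), Acss2 (2.10) and Ecel1 (2.08). Among partners of Cartpt, Sst ranked 13 of 8725, where the median was 0.992 and the highest 5% began at 1.48. Cyb5r4 (2.56), Dnajb12 (2.50), Hnrnpf (2.48), Asb4 (2.47), Phactr2 (2.43) and Nts (2.42) were among those above it. Many of these genes were in few cells (27 for Uxt, 28 for Dnajb12), and the ratios named here rest on 9 to 24 shared cells. The pair was picked for its co-detection, so its rank is a description.

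**Figure D3:**
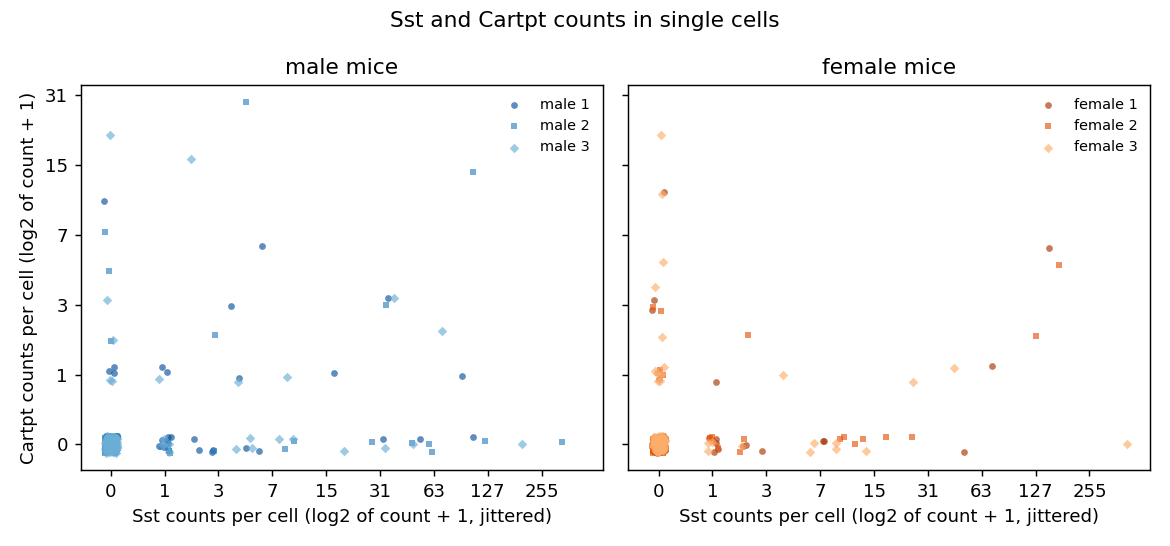
Sst counts (horizontal) and Cartpt counts (vertical) of each kept cell on a log2 scale of the count plus 1, jittered, for male mice (left) and female mice (right), with a marker for each mouse. Cells with over 100 Sst counts lie both at 0 Cartpt and at up to 14 Cartpt counts, and cells with 10 or more Cartpt counts lie mostly at few or no Sst counts.

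The share of cells with Cartpt was higher at higher Sst counts. It was 7.49% of 427 cells with no Sst count (5.18% to 10.4%), 12.5% of 32 cells with 1 count (3.51% to 29.0%), 27.8% of 36 cells with 2 to 9 (14.2% to 45.2%) and 37.1% of 35 cells with 10 or more (21.5% to 55.1%). The median depth of these 4 groups was 5865, 6503.5, 6336 and 5448 counts, so the cells with the most Sst were the shallowest. The share at 10 or more Sst counts was above that at 0 in each mouse, at 50%, 25% and 28.6% in males 1, 2 and 3 and 66.7%, 28.6% and 50% in females 1, 2 and 3, from 3 to 8 cells per mouse. The interval at 1 Sst count covers the value at 0. In the other direction, Sst was in 16.1% of cells with no Cartpt count, 46.4% of the 28 with 1 count and 45.2% of the 31 with 2 or more, and the last 2 values lie within each other's intervals.

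Within the cells that held Sst, those with Cartpt had the higher median Sst count in 6 of 6 mice. The median was 5, 20.5 and 6 counts in the cells of males 1, 2 and 3 with both genes and 67, 119 and 26 in those of females 1, 2 and 3. In Sst only cells it was 2, 9 and 5 counts in the males and 2, 5.5 and 6 in the females. The mean was higher in 3 of 6 mice. It was 20.3, 37.3 and 20.2 counts per cell with both in males 1, 2 and 3 and 70, 96.3 and 24.3 in females 1, 2 and 3, against 13.4, 47.4 and 24.9 per Sst only cell in the males and 6.91, 8 and 45.3 in the females. The cells with 405, 316 and 191 Sst counts held no Cartpt.

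The wells next to each cell on its plate were looked up as well. A neighbour with 10 or more Sst counts was found for 19.0% of cells with no Sst, 12.5% of cells with 1 count, 27.8% of those with 2 to 9 and 11.4% of those with 10 or more. A neighbour with both genes was found for 14.8% of cells with both and 13.7% of the others. In male 1, 4 of the 8 cells with both stood side by side in 1 row.

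Pooled over the 6 mice, cells with much Sst differed in other genes from those with little. Ecel1, a membrane protease of the endothelin-converting enzyme family found in neurons, was in 51.4% of the 35 cells with 10 or more Sst counts, against 8.33% at 2 to 9 counts, 9.38% at 1 and 7.49% at 0. Nr5a1, the VMH transcription factor whose promoter drives the Cre, was in 11.4% of them, against 33.3%, 18.8% and 31.4%. Slc17a6, the vesicular glutamate transporter, was in 54.3%, against 86.1%, 81.3% and 77.5%. The GABA synthesis gene Gad1 was in 22.9%, against 5.56%, 6.25% and 5.39%. Each mouse gave 3 to 8 of the 35 cells. In male 1, Nr5a1 was in 33.3% of cells with 10 or more Sst counts and 26.1% of those with 0. Against 0 Sst counts, every other mouse and gene went the pooled way. The limit of 10 counts and these 4 genes were chosen after their values were seen.

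**Figure D4:**
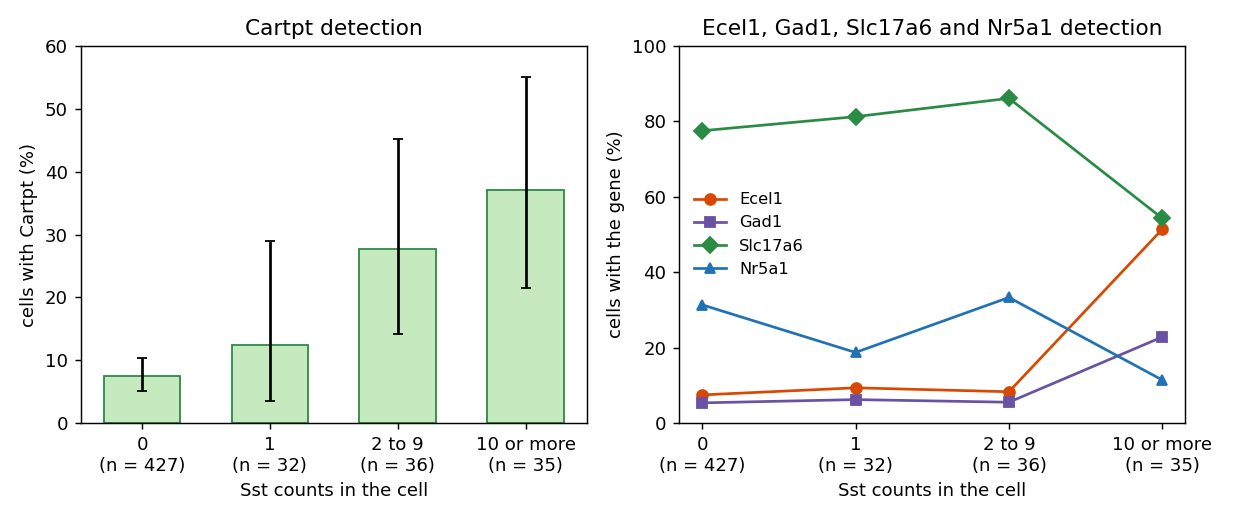
Left, share of cells with Cartpt by the number of Sst counts in the cell, pooled over 6 mice, with exact 95% binomial intervals. Right, share of the same cells with Ecel1, Gad1, Slc17a6 and Nr5a1, where Ecel1 reaches 51.4% and Slc17a6 is down to 54.3% in the 35 cells with 10 or more Sst counts.

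Ecel1 and Cartpt overlapped only in part within those 35 cells. Ecel1 was in 18 of them, Cartpt in 13, both in 7, Ecel1 alone in 11, Cartpt alone in 6 and neither in 11. The 7 cells with both Ecel1 and Cartpt came 1 or more from each of the 6 mice and held a median of 105 Sst counts (43 to 168), against 61 with Ecel1 alone (12 to 405), 36.5 with Cartpt alone (17 to 67) and 25 with neither (10 to 102). Of the 35, 13 held Slc17a6 and no GABA gene (Gad1, Gad2 or the vesicular transporter Slc32a1), 10 a GABA gene and no Slc17a6, 6 both kinds and 6 none. Otp, a transcription factor needed for hypothalamic somatostatin neurons in the mouse, was found in 6 cells of 4 mice, and all 6 had at least 10 Sst counts. Otp was in 0 of the 427 cells without Sst, which allows a share of up to 0.703%, counting detection alone. No cell held more than 2 Otp counts, so this does not limit the share of cells that express it. Other listed periventricular and paraventricular genes did not share this. Arnt2 was in 12.6% of cells with Sst and 18.7% of those without, lower in 5 of 6 mice, and Sim1 in 0 of 103. The 11 listed genes together averaged 34.5, 56.4, 70.8 and 53.8 CPM in cells with both, Sst only, Cartpt only and neither. The SD over mice was 41.1, 24.8, 94.1 and 8.95 CPM.

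The genes most like Sst in their levels from cell to cell were ranked by Pearson's r of log values centred within each plate, over 530 cells and 8725 genes. These correlations are across cells that share plates and depth, and carry no test. Ecel1 came first (r = 0.49), then Sstr2 (0.29), which encodes a receptor of somatostatin itself, Cartpt (0.27), the parathyroid hormone-like gene Pthlh (0.24) and the inositol trisphosphate kinase gene Itpka (0.20). Bphl, Nkap, Hmgn5, Hpcal1 and Hnrnpf followed at 0.19 each. For Cartpt the order was Sst (0.27), Ecel1 (0.24), the neurotensin gene Nts (0.24), Phactr2 (0.22), the pro-opiomelanocortin gene Pomc (0.22), Dnajb12 (0.20), Slc35a2 (0.20), Slc23a2 (0.19), Zmat3 (0.19) and Mtss1 (0.18). The median over genes was 0.00 for Sst and the highest 5% began at 0.08.

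Ecel1, on chromosome 1, was in 33.3% of cells with both genes, 19.7% with Sst only, 18.8% with Cartpt only and 6.58% with neither. Its level in CPM (counts scaled to a common total) in the summed cells of a mouse was 114, 52.0 and 200 in the cells with both of males 1, 2 and 3 and 201, 359 and 49.0 in those of females 1, 2 and 3. In cells with neither it was 27.6, 19.99 and 14.2 CPM in the males and 6.03, 7.03 and 22.5 CPM in the females. Ecel1 ranked first by likeness to Sst in these same cells, so a higher level beside Sst follows from how it was picked. The means were 163 ± 118 CPM with both, 106 ± 114 with Sst only, 34.4 ± 48.5 with Cartpt only and 16.2 ± 8.66 with neither (SD, n = 6 mice). Over all cells with Sst, 23.3% held Ecel1, against 7.49% of those without, higher in 6 of 6 mice, and 11% against 2.72% after thinning.

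Of the receptors, Sstr2 was in 19.4% of cells with Sst and 7.96% of those without, higher in 5 of 6 mice, and 13.7% against 2.72% after thinning. It averaged 56.6 ± 52.5 CPM in cells with both, 42.8 ± 29.0 with Sst only, 22.4 ± 33.3 with Cartpt only and 16.0 ± 7.33 with neither. Sstr3 went the other way: it was in 1 of 103 cells with Sst and 28 of 427 without, lower in 6 of 6 mice. After thinning it was in 0% and 1.98%. All mice but male 1 had no Sst cell with Sstr3, and at so low a share an absence counts as lower. Sstr1 was in 3.88% of cells with Sst and 4.45% of those without, and Sstr5 in 0.971% and 3.51%. Sstr4 had no count in any cell. Cort, which encodes the related peptide cortistatin, had 1 count in all cells. Gpr160 and Npffr2, named in the literature as possible CART receptors, were in 1 and 7 cells. None of these 8 genes had enough counts to enter the test over mice described next.

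To compare the 4 kinds of cells over mice, counts were summed per mouse and kind (24 sums) and tested with edgeR's quasi-likelihood test with mouse as a block, leaving the rows Sst and Cartpt out. The sums were shallow, and 1538 genes had enough counts to be tested. Adjusted p-values are Benjamini-Hochberg values over these genes, with a threshold of 0.05, and fold changes are log2. The replicates are the 6 mice, and the 4 sums of a mouse share a plate.

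Cells with both genes held more of 2 widely expressed genes than cells with neither. Tmsb4x, which encodes the actin-binding thymosin beta 4, was at 4841, 3694 and 4693 CPM in the cells with both of males 1, 2 and 3 and at 3516, 4491 and 3429 in those of females 1, 2 and 3. In cells with neither it was at 3661, 3166 and 2761 CPM in the males and 2280, 4010 and 2407 in the females. It was higher in 6 of 6 mice, though the ranges overlap (log2 fold change 0.47, SE 0.10, edgeR adjusted p = 0.0203). Hpcal1, a neuronal calcium sensor of the visinin family, was at 473, 598 and 699 CPM with both in the males and 804, 2156 and 147 in the females. With neither it was at 270, 415 and 285 CPM in the males and 265, 514 and 345 in the females, so that female 3 went the other way (log2 fold change 0.92, SE 0.18, edgeR adjusted p = 0.00583). These were the 2 genes called, 0.13% of those tested, and both calls were lost without male 3 (adjusted p = 0.234 each), when no gene was called. Tmsb4x was also lost without male 1 (0.0577). Without female 1, 6 genes were called. Nrgn, a neuronal calmodulin-binding protein (0.61, adjusted p = 0.14), Uchl3 (0.69, 0.198) and Entpd6 (-1.30, 0.224) came next and did not pass.

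Sst only cells held less Tac1, the precursor gene of substance P, and less of the cadherin gene Cdh13, and more Nts, than cells with neither. Cdh13 was at 243, 104 and 176 CPM in Sst only cells of males 1, 2 and 3 and 264, 196 and 268 CPM in those of females 1, 2 and 3. In cells with neither it was at 425, 400 and 321 CPM in the males and 319, 408 and 380 in the females. Cdh13 was lower in 6 of 6 mice (log2 fold change -0.82, SE 0.16, edgeR adjusted p = 0.00266), and the call was lost without male 2 (0.0876). Tac1 averaged 383 ± 411 CPM in Sst only cells and 945 ± 323 CPM with neither (SD, n = 6 mice), lower in 6 of 6 mice (-1.47, SE 0.30, edgeR adjusted p = 0.00311), and its fold change was -2.23 without female 3. Nts averaged 128 ± 112 CPM in Sst only cells and 28.8 ± 28.1 with neither, higher in 4 of 6 (2.46, SE 0.48, edgeR adjusted p = 0.00266), lost without female 3 (0.074) and with a fold change of 3.06 without male 2. The 3 genes are 0.195% of those tested.

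Cartpt only cells held more Nts and Pomc than cells with neither, and those were the 2 genes called (0.13%). Nts was at 1545, 0 and 137 CPM in Cartpt only cells of males 1, 2 and 3 and 810, 332 and 123 in those of females 1, 2 and 3. In cells with neither it was at 18.4, 80.0 and 15.9 CPM in the males and 6.03, 42.2 and 10.0 in the females. It was higher in 5 of 6 mice (log2 fold change 4.15, SE 0.47, edgeR adjusted p = 2.49e-09). Its fold change was 3.10 without male 1 and 4.97 without male 2. Pomc was at 26.6, 9827 and 1288 CPM with Cartpt only in the males and 0, 82.9 and 5918 in the females, and at 252, 262 and 457 CPM with neither in the males and 21.1, 21.1 and 602 in the females. It was higher in 4 of 6 mice (2.84, SE 0.45, edgeR adjusted p = 2.59e-05). Leaving out the 17 cells with 10 or more Pomc counts left 1 gene called, from Cartpt only cells of 5 mice. Tmem59 (0.57, adjusted p = 0.0729), Calb2 (-0.79, 0.0729) and A230065H16Rik (-1.31, 0.0729) did not pass.

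The peptide genes behind these calls sat in few cells. Of 99 Nts counts in Cartpt only cells, 58 were in 1 cell, and 31 of 79 in Sst only cells. Of the 212 Pomc counts in cells with both, 207 were in 1 cell of male 2. The test drew the spread of each gene towards that of other genes of like level. When genes with an unusual spread kept more of their own, a setting added after seeing the data, Nts and Pomc in Cartpt only cells did not pass (adjusted p = 0.0706 and 0.345), nor did Tac1 (0.821) and Nts (0.713) in Sst only cells. Cdh13 (0.000845), Hpcal1 (0.000879) and Tmsb4x (0.0103) did. By DESeq2, Nts (adjusted p = 0.121) and Pomc (0.93) in Cartpt only cells, Tac1 and Nts in Sst only cells (0.999 each) and Tmsb4x (0.0616) also missed the threshold, while Hpcal1 (0.0344) and Cdh13 (0.0464) passed.

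**Figure D5:**
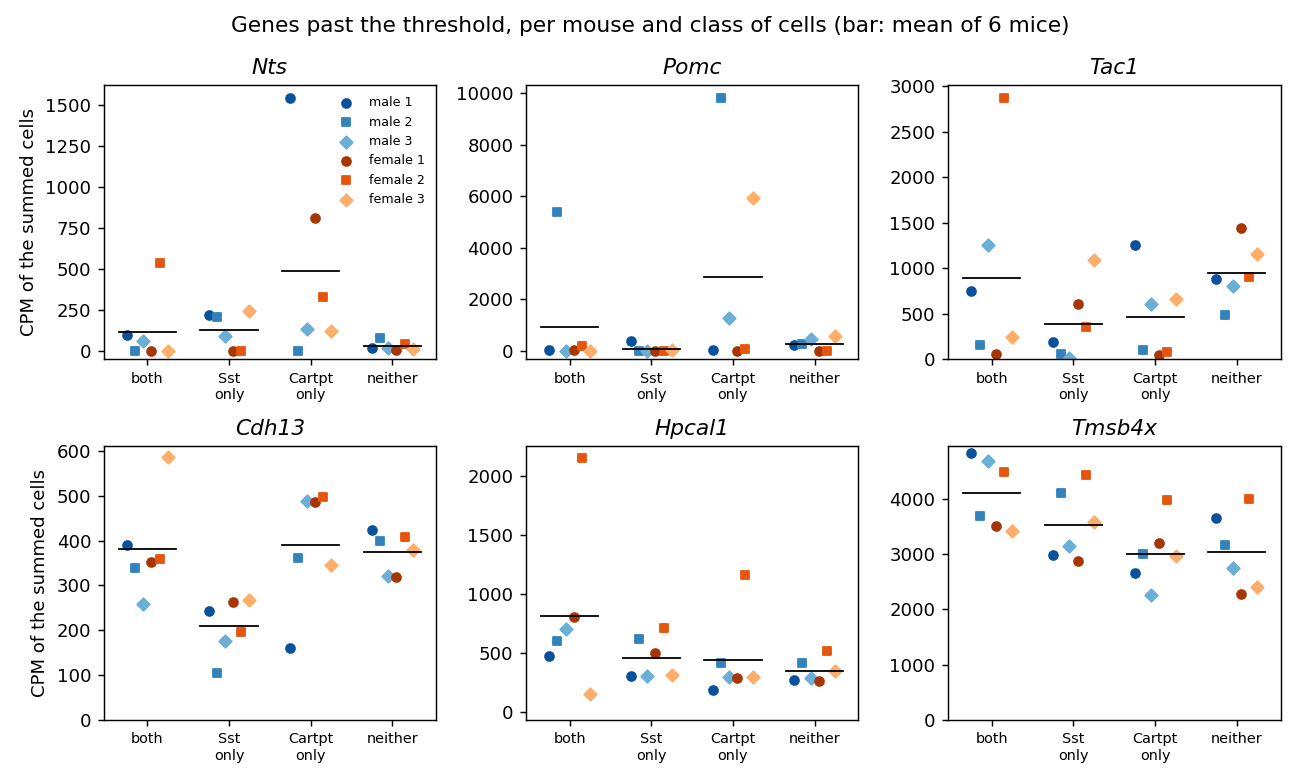
CPM of 6 genes in the summed cells of each mouse with both genes, Sst only, Cartpt only and neither (markers are mice, horizontal bars the mean of 6). Cdh13 in Sst only cells is below its level with neither in all 6 mice, while the highest values of Nts and Pomc come from 1 to 3 mice.

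Cells with both genes were set against each kind with 1 of them. Against Sst only cells no gene passed edgeR's threshold (0.0%), with 99 genes at an unadjusted p under 0.05, and none passed by DESeq2 (72 unadjusted). Pomc (log2 fold change 2.70, adjusted p = 0.304), Nrgn (0.66, 0.304) and Uchl3 (0.74, 0.56), higher with both, and Bin1 (-1.09, 0.56) had the smallest p-values. Without female 3, 2 genes were called, and without male 1, 1 gene. Against Cartpt only cells, Nts alone passed (0.065%), at 116 ± 211 CPM with both and 491 ± 590 CPM with Cartpt only (-3.15, SE 0.66, edgeR adjusted p = 0.0186). It was lower in 4 of 6 mice and lost without male 1 (adjusted p = 0.576, fold change -2.49), without female 1 (0.0674), with the spread that keeps more of each gene's own (0.426) and by DESeq2 (0.532). Without male 2, 3 genes were called in that comparison, and without male 3, 4 genes. These 2 comparisons share the sums of the cells with both.

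Sst only and Cartpt only cells differed in 3 genes (0.195%). Pomc averaged 76.0 ± 159 CPM in Sst only cells and 2857 ± 4106 CPM in Cartpt only cells (log2 fold change -4.35, SE 0.60, edgeR adjusted p = 1.63e-06), lower in 4 of 6 mice and not past the threshold with the spread that keeps more of each gene's own (0.532). Its fold change was -7.96 without male 1, -3.51 without male 2 and -3.52 without female 3. By DESeq2 none of the 3 genes passed (adjusted p = 0.816 for Pomc, 0.278 for Cbln4 and 0.0778 for Tmem59). Cbln4, a secreted cerebellin that organises synapses, was at 85.6, 117 and 213 CPM in Sst only cells of males 1, 2 and 3 and 155, 39.3 and 324 CPM in those of females 1, 2 and 3. In Cartpt only cells it was at 0, 0 and 58.5 CPM in the males and 162, 0 and 37.0 CPM in the females, from 10 counts in all (2.00, SE 0.47, edgeR adjusted p = 0.0417). Tmem59, a transmembrane protein gene, was lower in 6 of 6 mice, at 432 ± 110 CPM in Sst only cells and 692 ± 130 CPM in Cartpt only cells (-0.71, SE 0.17, edgeR adjusted p = 0.0417). Cbln4 lost its call without male 1, 2 or 3 or female 2 (adjusted p = 0.0558 to 0.256) and was at 2.60 without female 1, and Tmem59 without male 1, 2 or 3 or female 3 (0.0573 to 0.304). The Tmem59 fold change was 0.07 in thinned cells. Without male 1, and likewise without male 3, 1 gene was called.

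Lists of genes by role or cell type gave few tested members. Of 9 tested genes of peptide processing and dense-core granules (Pcsk1n, Vgf, Cpe, Pcsk2, Scg5, Scg3, Scg2, Chgb and Chga) of 13, none passed in any of the 6 comparisons. Their median log2 fold change was -0.02 in cells with both, -0.19 with Sst only and -0.23 with Cartpt only, each against neither, where the median of all genes tested was -0.02, 0.00 and -0.01. The 13 genes together made up 7767 ± 1471, 8190 ± 766, 7253 ± 536 and 8548 ± 859 CPM in cells with both, Sst only, Cartpt only and neither. Of 8 tested genes of other neuropeptides (29 listed), 0, 2 and 2 passed in the same 3 comparisons, which are those named above. Of 5 tested VMH neuron genes (16 listed: Adcyap1, Fezf1, Nptx2, Bdnf and Slc17a6), none passed in any comparison, with medians of 0.12, -0.42 and -0.15 against neither. Of 3 tested ventrolateral VMH genes (Rprm, Tac1 and Pdyn), Tac1 passed in Sst only cells. No GABAergic or periventricular gene had the counts to be tested. The 14 GABAergic genes together made up 141 ± 107, 224.5 ± 82.6, 142 ± 153 and 138 ± 58.0 CPM in cells with both, Sst only, Cartpt only and neither. Gad1 was in 7.41%, 13.2%, 9.38% and 5.06% of these cells.

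Nr5a1, the gene whose promoter drives the Cre, was in 11.1% of cells with both, 25% with Sst only, 18.8% with Cartpt only and 32.4% with neither, and at 17.5 ± 22.0, 56.0 ± 61.2, 30.5 ± 50.9 and 94.98 ± 41.8 CPM (SD, n = 6 mice). Its share was lower in cells with Sst than without in 5 of 6 mice, and likewise for Cartpt. After thinning, Nr5a1 was in 8.22% of cells with Sst and 14.6% of those without. Fezf1, a zinc finger factor of the VMH, was in 55.6%, 36.8%, 43.8% and 39.0% of cells with both, Sst only, Cartpt only and neither. The general neuronal genes made up 8289 ± 1183, 8426 ± 998, 8971 ± 820 and 8674 ± 1023 CPM.

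Other genes were described by whether the cell held Cartpt. Pomc was in 28.8% of the 59 cells with Cartpt and 11% of the 471 without, higher in 6 of 6 mice, and 27.6% against 5.13% after thinning. In cells with Sst it was in 12.6%, against 13.1% of cells without. Of the 17 cells with at least 10 Pomc counts, in 4 mice, 8 held Cartpt and 2 held Sst, none of them with 10 Sst counts. The arcuate transcription factor Tbx3 was in 18.8% of Cartpt only cells, against 3.70% with both, 3.95% with Sst only and 2.53% with neither. Those Cartpt only cells were 6, from 3 of 6 mice. Of other arcuate genes, Agrp was in 0 of the 59 cells with Cartpt and 4 of the 471 without, and Npy in 2 and 9. Rprm, a p53 target gene enriched in the ventrolateral VMH, was in 55.9% of cells with Cartpt and 34.2% of those without, in 6 of 6 mice (34.5% and 20.3% after thinning). Other listed genes of that region were mixed. Pdyn was in 35.6% and 43.1%, lower in 5 of 6 mice (20.7% and 24.8% after thinning). Tac1 was in 50.8% and 34.6% (24.1% and 29.0% after thinning), and Esr1 in 13.6% and 3.61% (6.90% and 1.79% after thinning). The 10 listed genes together averaged 1408, 941, 1034 and 1528 CPM in cells with both, Sst only, Cartpt only and neither. Isl1 was in 40.7% of cells with Cartpt and 21.0% of those without, higher in 6 of 6 mice (17.2% and 12.1% after thinning). Phactr2 was in 32.2% and 7.86% (6.90% and 3.57% after thinning). Both Pomc and Phactr2 were among the 10 genes most like Cartpt over these same cells. Their higher shares beside Cartpt are therefore no separate support. Median depth was 7382.5 counts in cells with 1 Cartpt count and 6816 with 2 or more, against 5710 in cells without, so unthinned shares are compared here at unequal depth.

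Of the markers of other cell types, those of microglia and of blood vessels stayed at or below 50.2 CPM in each sum, and those of astrocytes did not. The 8 microglia genes together had a range of 0 to 50.2 CPM over mice in cells with both, 0 in Sst only and Cartpt only cells and 0 to 7.50 CPM in cells with neither. The 8 endothelial and mural genes ranged from 0 to 20, 0 to 15.5, 0 to 12.3 and 1.77 to 21.1 CPM, with 1, 3, 1 and 7 genes having a count. The 8 oligodendrocyte lineage genes ranged from 0 to 180, 21.4 to 78.2, 19.5 to 166 and 33.1 to 175 CPM. The 8 astrocyte genes ranged from 196 to 804, 491 to 823, 259 to 995 and 556 to 1100 CPM, with means of 461, 657, 511 and 686 CPM. Of them 4, 6, 4 and 8 had a count, and the 1 tested, Aldoc, did not pass in any comparison. Other astrocyte genes had few counts in the same 4 kinds of cells: Slc1a3 0, 1, 0 and 22, Gja1 0, 0, 0 and 17, and Aqp4 1, 0, 1 and 4. Ependymal and tanycyte genes reached 414 CPM in Cartpt only cells of 1 mouse, against highest values of 52.0 with both, 46.6 with Sst only and 35 with neither. Their medians over mice were 50.3, 0, 32.7 and 24.1 CPM in the same order, and their mean in Cartpt only cells was 99.2 ± 157.5 CPM. Their part in the results was not tested. One Sst only cell of female 3 with 1 Sst count held 1195 counts of Pmch, the melanin-concentrating hormone gene of the lateral hypothalamus, and was the 1 cell with 10 or more. It was also the deepest cell, at 22385 counts.

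The sexes were compared because the study sampled both. A larger share of male cells held Sst: 25.8%, 21.4% and 20.7% in the males and 15.9%, 17.2% and 15.1% in the females, which did not overlap. The means were 22.6% ± 2.78 in males and 16.1% ± 1.07 in females (SD, 3 mice a sex). A two-sided exact permutation test gave p = 0.1, the smallest that 3 mice against 3 allow (0.15 adjusted over 3 shares). Cells with both made up 6.63% ± 1.92 in males and 3.45% ± 0.0396 in females (exact permutation p = 0.1, adjusted 0.15), and cells with Cartpt 11.1% ± 2.41 and 11.1% ± 4.49 (exact permutation p = 1). The male plates were on the whole deeper. After thinning, Sst was in 17.3% ± 1.68 of male cells and 13.6% ± 4.22 of female cells (exact permutation p = 0.3), both in 1.93% ± 1.82 and 1.56% ± 1.38 (exact permutation p = 0.8), and the sexes overlapped.

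The level of Sst over all cells of a mouse did not follow its share. It was 480, 1518 and 574 CPM in males 1, 2 and 3 and 648, 2074 and 889 CPM in females 1, 2 and 3 (log2 fold change male over female -0.47, SE 0.51, edgeR adjusted p = 0.999). The sign turned without female 2 (0.18), the mouse with the highest level and the least depth, and the value was -0.04 without the top Sst cell of each mouse. Cartpt was at 38.3, 114 and 65.8 CPM in the males and 61.2, 97.0 and 86.2 CPM in the females (-0.14, SE 0.41, edgeR adjusted p = 0.999), and its sign turned without male 1 (0.17). Of 6794 genes tested between the sexes, none passed (0.0%), with 167 at an unadjusted p under 0.05, and 4 passed by DESeq2. Fewer cells of a kind and less RNA per cell cannot be told apart in such sums.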

How the data were processed

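Counts per gene and well were used as deposited by the authors, 1 plate per mouse. They were whole numbers, not normalised. Per the submitters' processing notes, HTSeq and mm10 were used. Not given in the sources used here are the aligner, the versions, the strand of counting and whether molecules or reads were counted. Per the labels' protocols, tissue was dissociated with papain and libraries were made with the BD Precise whole transcriptome kit.

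Sst, Cartpt, the gene lists and the limits were chosen with earlier results of these data known. Sums per mouse and kind of cell, each of at least 3 cells, were tested with edgeR 4.0.16 (TMM, filterByExpr, quasi-likelihood) in R 4.3.3, with mouse as a block because the sums of a mouse come from 1 animal. The spread within 15 residual degrees of freedom was combined with a prior worth 45. DESeq2 1.42.0, Python 3.11.15 and scipy 1.17.1 were also used. The fits were also run on counts simulated with 1 common spread for all genes and no difference between mice. Such counts cannot show how the fits treat genes whose counts sit in few cells, such as Nts and Pomc. CPM divide each count by the total of its sum. Intervals cover counting error only. The labels number the samples as separate mice. With mouse as a block, p-values between kinds of cells rest on the spread of the sums within mice, drawn towards that of other genes. Those between the sexes rest on the spread between these 6 mice, in edgeR again drawn towards that of other genes.

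Genes were named by a rule: up to 10 per direction that passed an adjusted p of 0.05 with 20 CPM or more and the same direction in every mouse, or, where this gave under 3, the 5 with the smallest p; listed genes that passed; and the 10 genes most like Sst and most like Cartpt. Ranked partners, Ecel1 subgroups, Otp, Tbx3, Pmch and receptor shares were named after their values were seen. Promoter sequences are from RefSeq (GRCm38.p6) and gene positions from GENCODE vM21.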

Additional observations from a re-analysis of the deposited data

Results flagged for a closer look

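Among 40 sets of 6 mice, 7 had a mouse apart from the others by Dixon's criterion (a gap over 0.625 of the range). The criterion flags about 1 in 20 sets of independent, normally distributed values. Many of these sets are skewed sums of few cells, and they share mice, so that rate does not apply to them. The share of cells without Sst that held Cartpt was 15.1% in female 3, against 4.55% to 6.94% in the other mice. Hpcal1 was at 2156 CPM in cells with both and at 1160 CPM in Cartpt only cells of female 2, the shallowest plate. Nts in cells with both was at 538.9 CPM in female 2. Pomc was at 5385 CPM in cells with both of male 2, where 1 cell held nearly all of it, and at 399.5 CPM in Sst only cells of male 1. Cbln4 was at 162.0 CPM in Cartpt only cells of female 1.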

How the results depend on the processing

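The ratio of observed to expected cells with both genes stayed above 1 under all settings tried, between 1.81 (thinned cells) and 3.67 (10 or more Sst counts), and was 3.37 with at least 2 counts. Whole plates gave 2.35 and 5 depth groups a plate 2.31. Counts of genes past the threshold were small and moved with many settings. Some settings left fewer sums: cells with both came from 2 males alone with at least 5 cells per sum, 4 mice without cells of 1 count, 5 at 1000 genes per well and 1 in thinned cells (3 cells of male 2, a lone sum assumed to vary like the others, which says nothing about stability). Cartpt only cells came from 3, 4, 6 and 5 mice. With both against neither (2 genes), they were 1 by DESeq2, 8 with at least 5 cells per sum, 9 without cells of 1 count, 69 with no filter on low counts (62 lower), 0 in thinned cells and 0 with no replicate block. With Sst only against neither (3 genes), they were 1, 6, 4, 12, 1 and 0 under the same settings. With Cartpt only against neither (2 genes), they were 0, 4, 10, 140 (129 lower), 12 and 1, and 1 without cells of 10 or more Pomc counts. With both against Sst only (0 genes), they were 3 with at least 5 cells per sum, 7 without cells of 1 count, 7 with no filter and 1 without the Pomc cells. With both against Cartpt only (1 gene), they were 0 by DESeq2, 3 at 1000 genes per well, 4 with 5 cells per sum, 11 with no filter and 0 with no replicate block. With Sst only against Cartpt only (3 genes), they were 0 by DESeq2, 1 at 1000 genes per well, 25 with no filter and 0 with no replicate block. With a spread that keeps more of each gene's own they were 2, 1, 0, 0, 0 and 3 in the order above. Leaving out 1 mouse gave 0 to 6, 2 to 4, 2 to 3, 0 to 2, 0 to 4 and 1 to 3 genes. Without a filter most of the added genes in the comparisons with neither were lower in the kind with fewer cells. With both against Sst only, 4 were higher and 3 lower, and against Cartpt only, 4 and 7. With Sst only against Cartpt only, 13 were higher and 12 lower. The cause was not tested. In thinned cells Tmem59 was at 0.07154, the reverse of its main sign, from 6 Sst only and 5 Cartpt only sums, and Tmsb4x was at -0.49, from the lone sum.

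Males and females of the same label number had correlations of deviations of -0.12, -0.09 and 0.16. Those of unlike number had -0.10 to 0.21. With 3 mice a sex, these values cannot show whether the label number pairs mice. With that number as a replicate block, the male over female fold change was -0.49 for Sst (edgeR adjusted p = 1.00) and -0.26 for Cartpt, and no call changed. Leaving out 1 mouse gave fold changes of -1.15 to 0.18 for Sst and -0.58 to 0.17 for Cartpt, and male minus female shares of 4.95 to 7.53 points for Sst, 2.19 to 4.11 for both and -1.67 to 2.49 for Cartpt. The Cartpt difference, -0.08 points in the main setting, was 1.02 points with at least 2 counts. With 3 mice a sex, no share could pass 0.05.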
